A study of Mus musculus with 8 samples.

Results

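The 10 genes described here carry glucose into the cell and settle what becomes of pyruvate and lactate, and they were taken by symbol for what their proteins do: *Slc2a1*, *Slc2a3*, *Ldha*, *Ldhb*, *Slc16a1*, *Slc16a3*, *Pdk1*, *Pdha1*, *Mpc1* and *Mpc2*. They are 10 of the 55385 genes counted and of the 17445 that passed the filter on low counts, which all 10 passed. RNA-seq was run on R1 mouse embryonic stem cells (mESCs), a wild-type line, after knock-down (KD) of *Eftud2*, which encodes a GTPase of the U5 snRNP of the spliceosome. There were 3 libraries with shRNA1, whose target lies after the *Eftud2* stop codon, 3 with shRNA2, whose target is in the coding sequence, and 2 with a non-targeting hairpin (nt-shRNA). All 8 cultures grew in N2B27 medium with 2i and LIF on poly-L-ornithine and laminin, were infected with lentivirus on 2 days and kept in puromycin for 3 days, so the nt-shRNA cells also carried a virus and a resistance gene. The replicates are named as biological in the labels, but they come from a single line, and both KD groups are compared with the same 2 nt-shRNA libraries.

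Glucose crosses the plasma membrane through facilitative carriers of the SLC2A (GLUT) family and is broken down to pyruvate in the cytosol. Lactate dehydrogenase interconverts pyruvate and lactate, and proton-linked carriers of the SLC16A (MCT) family move lactate and pyruvate across the plasma membrane. Pyruvate that is kept enters mitochondria through the MPC1–MPC2 carrier and is turned into acetyl-CoA by the pyruvate dehydrogenase (PDH) complex, which PDH kinases switch off by phosphorylating its E1α subunit. Naive mESCs are known to use both glycolysis and mitochondrial oxidation.

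RefSeq promoter windows (GRCm38.p6, 250 bases before to 50 after an annotated start, on the gene's strand) were found for 9 of the 10 genes, in 12 windows. Of these windows 4, each of a different gene, held ACGTG, the core of the hypoxia response element, on either strand, compared with 19.6% of all 32851 windows. These 4 are shown because they include both lactate carriers, of which only *Slc16a3* passed the test in the KD cells, together with *Slc2a1* and *Ldha*. They are the windows of *Slc2a1* (chr4:119108495-119108794, plus strand), *Ldha* (chr7:46845554-46845853, plus strand), *Slc16a3* (chr11:120948817-120949116, plus strand) and *Slc16a1* (chr3:104638414-104638713, plus strand), and capitals mark ACGTG or its reverse complement CACGT.
Slc2a1: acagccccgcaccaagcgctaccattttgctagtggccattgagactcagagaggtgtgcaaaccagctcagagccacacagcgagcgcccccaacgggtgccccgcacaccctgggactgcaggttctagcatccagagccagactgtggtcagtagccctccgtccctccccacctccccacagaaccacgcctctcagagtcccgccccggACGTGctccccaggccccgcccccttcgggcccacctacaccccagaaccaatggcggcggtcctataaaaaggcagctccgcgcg
Ldha: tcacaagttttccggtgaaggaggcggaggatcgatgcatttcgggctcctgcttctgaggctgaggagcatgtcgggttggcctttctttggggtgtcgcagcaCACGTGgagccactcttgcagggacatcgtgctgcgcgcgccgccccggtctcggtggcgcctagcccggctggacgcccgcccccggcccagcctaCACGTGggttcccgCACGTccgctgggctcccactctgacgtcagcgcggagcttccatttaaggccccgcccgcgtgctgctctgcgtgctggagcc
Slc16a3: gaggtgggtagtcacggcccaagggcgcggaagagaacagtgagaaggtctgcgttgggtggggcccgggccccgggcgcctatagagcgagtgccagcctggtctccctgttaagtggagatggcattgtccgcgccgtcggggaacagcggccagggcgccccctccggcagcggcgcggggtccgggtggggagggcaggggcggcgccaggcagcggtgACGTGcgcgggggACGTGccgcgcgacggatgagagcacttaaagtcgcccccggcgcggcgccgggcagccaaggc
Slc16a1: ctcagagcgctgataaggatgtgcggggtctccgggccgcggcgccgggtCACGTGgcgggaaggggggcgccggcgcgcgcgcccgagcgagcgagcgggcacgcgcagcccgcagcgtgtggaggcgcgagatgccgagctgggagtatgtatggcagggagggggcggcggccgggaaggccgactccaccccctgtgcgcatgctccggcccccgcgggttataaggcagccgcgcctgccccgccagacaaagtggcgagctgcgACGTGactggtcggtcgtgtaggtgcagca
The *Ldha* window had 5 ACGTG matches over both strands, of which 4 were the paired strands of 2 E-boxes (CACGTG, which contains ACGTG on each strand). *Slc16a1* had 3 matches with 1 E-box, *Slc16a3* had 2 and *Slc2a1* had 1. E-boxes occurred in 7.15% of all windows. Of the other letters searched on both strands, GCGTG was in 9 of the 12 windows (32.4% of all windows) and the GC box GGGCGG in 8 of the 12 (35.7% of all windows). The p53 half-site consensus, searched by its degenerate pattern, was in none of the 12 windows and in 8.36% of all windows, which says only that these letters are not in these 300 bases. *Ldha*, *Mpc1* and *Pdk1* had 2 windows each, and the second *Ldha* window, at a later start, held no ACGTG. The bases checked after the start of the printed *Ldha* window were in none of its GENCODE M21 transcripts, whereas those of the second window were in one. The *Pdha1* window also failed this check. The 4 windows shown had 65.3% to 73.7% GC, and the shares over all windows were not matched for GC.

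*Eftud2* itself was measured at 262 and 256 CPM (the unit of all levels here, read counts relative to the TMM-scaled library size) in nt-shRNA cells, at 232, 229 and 225 CPM with shRNA1 and at 198, 202 and 235 CPM with shRNA2. Its level was 81.7% of nt-shRNA with shRNA2 (adjusted p = 0.00122, edgeR) and 88.3% with shRNA1 (adjusted p = 0.0514). The shRNA1 value passed the threshold in 7 of 17 alternative settings, among them DESeq2 (adjusted p = 0.0487) and no filter on low counts (0.0300), and its adjusted p ranged from 0.0109 to 0.498 over them. By qPCR the paper reports a much larger loss of *Eftud2* RNA with each hairpin, more so with shRNA2. It also reports less EFTUD2 protein with both. Why the counts here show a smaller loss was not tested. The libraries held 19569525 to 29871048 counted fragments. All 10 pluripotency markers were detected, with a summed level of 4523 to 4590 CPM in nt-shRNA, 5060 to 5227 CPM in shRNA1 and 6022 to 6199 CPM in shRNA2 cells. The members of that sum moved in both directions, with 1 lower and 6 higher with shRNA1 (17.1% and 13.8% of all tested genes) and 1 lower and 7 higher with shRNA2 (28.7% and 27.2%). *Pou5f1* was lower (774, 606 and 634 CPM in nt-shRNA, shRNA1 and shRNA2 cells), whereas *Nanog* (912, 1340 and 1549 CPM) and *Klf4* (185, 290 and 460 CPM) were higher. The 12 markers of 2-cell-like cells summed to 16.1 to 19.5 CPM in nt-shRNA, 71.7 to 94.3 CPM in shRNA1 and 55.0 to 70.9 CPM in shRNA2 cells, with none at 0 in a whole group. Of the 11 tested, 11 were higher with shRNA1 and 10 with shRNA2 (13.8% and 27.2% of all tested genes), but 5 of the 12 averaged under 1 CPM in nt-shRNA cells. *Duxf3* was at 0.617, 1.30 and 0.474 CPM in nt-shRNA, shRNA1 and shRNA2 cells. The 6 trophectoderm markers summed to 219 to 225, 177 to 199 and 158 to 170 CPM, respectively, and 2 of them (*Cdx2* and *Elf5*) stayed under 1 CPM. Of the rest, *Krt18* was at 71.0, 45.0 and 29.1 CPM and *Krt8* at 64.5, 59.5 and 50.2 CPM, whereas *Eomes* (20.3, 20.4 and 20.5 CPM) and *Tfap2c* (65.4, 63.9 and 62.9 CPM) were not called with either hairpin. Markers of primitive endoderm, primed epiblast, neural ectoderm, mesoderm and fibroblasts summed to at most 26.1, 144, 77.7, 10.9 and 7.48 CPM in any library. The primed epiblast sum was 96.6 to 108 CPM in nt-shRNA, 110 to 121 CPM in shRNA1 and 132 to 144 CPM in shRNA2 cells. In that list *Dnmt3b* was at 38.6, 61.5 and 91.9 CPM and *Otx2* at 46.6, 41.6 and 30.0 CPM, respectively. Within the neural list *Nes* was lower (58.9, 43.0 and 22.7 CPM) and *Tubb3* higher (10.2, 15.6 and 30.5 CPM) with both hairpins. Of the markers in these lists, *Fgf5* and the fibroblast genes *Dcn* and *Lum* were at 0 in all shRNA2 libraries, *Neurog2* and *Dcn* in all shRNA1 libraries and *Col3a1* in both nt-shRNA libraries. The part of these markers in the results was not tested, and in bulk RNA fewer cells of a type and less RNA per cell cannot be told apart.

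With either hairpin both glucose carriers, both lactate dehydrogenase subunits and the lactate carrier *Slc16a3* were downregulated, the lactate carrier *Slc16a1* was not called, and none of the 10 was higher. With shRNA1, 8 of 10 were called lower (17.1% of all tested genes were called lower, 13.8% higher and 30.9% in either direction, edgeR quasi-likelihood test, Benjamini-Hochberg adjusted p under 0.05). With shRNA2, 7 of 10 were called lower (28.7% of all tested genes lower, 27.2% higher and 55.9% in either direction). Both comparisons called *Slc2a1*, *Slc2a3*, *Slc16a3*, *Ldha*, *Ldhb*, *Mpc1* and *Pdk1* (7 of 10), and 15.1% of tested genes were called lower in both, which share their controls. The median log2 fold change of the 10 was −0.47 with shRNA1 and −0.91 with shRNA2, beside −0.01 and 0.00 over all tested genes. The size of the fall spanned a wide range within the set, from the lactate carrier *Slc16a3* to *Slc16a1*, *Mpc2* and *Pdha1*, whose log2 fold changes against nt-shRNA lay between −0.19 and −0.08.

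**Figure D1:**
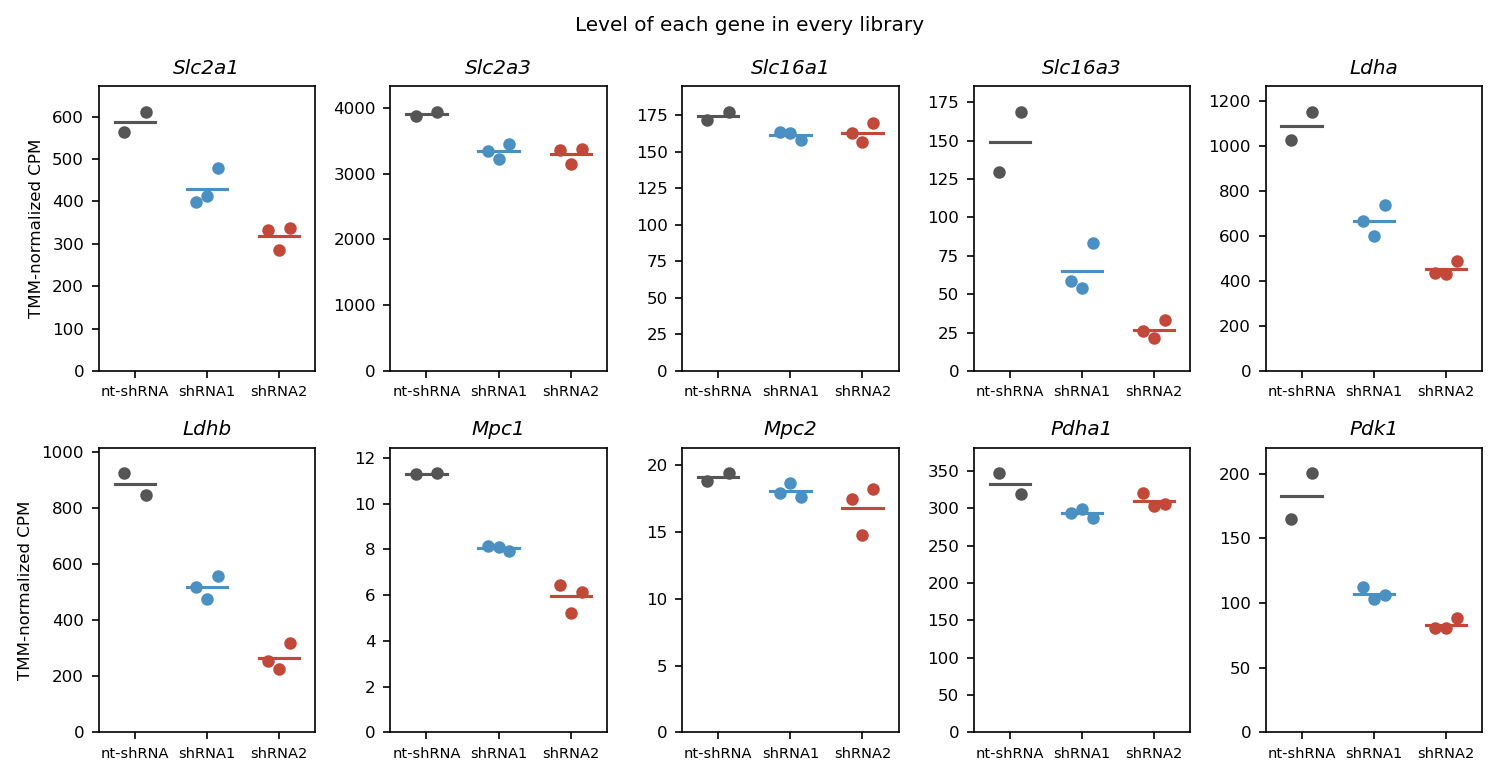
TMM-normalized CPM (vertical axis, from 0, a scale per panel) of the 10 genes in each library, with points for libraries and bars for group means in nt-shRNA (n = 2), shRNA1 (n = 3) and shRNA2 (n = 3). *Slc16a3*, *Ldha*, *Ldhb*, *Slc2a1*, *Mpc1* and *Pdk1* step down from nt-shRNA to shRNA1 to shRNA2, while *Slc2a3* has the same level with both hairpins within the spread, and *Slc16a1*, *Mpc2* and *Pdha1* move little.

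The first question is how the 2 glucose carriers responded. *Slc2a1* (ENSMUSG00000028645.11, chr4:119108711-119137983, GRCm38, plus strand) encodes GLUT1, the widespread basal glucose carrier. It was measured at 564 and 611 CPM in nt-shRNA, at 398, 413 and 478 CPM in shRNA1 and at 332, 285 and 336 CPM in shRNA2 cells. The 3 groups did not overlap, with nt-shRNA highest and shRNA2 lowest. Its level fell to 73.1% of nt-shRNA with shRNA1 (log2 fold change −0.45, SE 0.08, adjusted p = 0.000307) and to 54.1% with shRNA2 (−0.89, SE 0.08, adjusted p = 3.00e-08). The step from shRNA1 to shRNA2 was itself called (−0.44, SE 0.07, adjusted p = 0.000179). An antisense gene covers 2.99% of its exon length and had at most 12 counts in a library.

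*Slc2a3* (ENSMUSG00000003153.10, chr6:122727809-122801640, minus strand) encodes GLUT3, a carrier of high glucose affinity, and had by far more counts than any other of the 10. It stood at 3873 and 3938 CPM in nt-shRNA, at 3344, 3228 and 3443 CPM in shRNA1 and at 3361, 3147 and 3381 CPM in shRNA2 cells. Both KD groups lay below the controls, and they overlapped each other. It fell to 85.5% of nt-shRNA with shRNA1 (log2 fold change −0.23, SE 0.06, adjusted p = 0.00837) and to 84.4% with shRNA2 (−0.24, SE 0.06, adjusted p = 0.00221). The shRNA1 call was lost without nt-shRNA replicate 2 (adjusted p = 0.0655) and when libraries were scaled by their size alone (0.139). Between the hairpins the difference was −0.02 (95% interval −0.13 to 0.10, adjusted p = 0.825). Within libraries *Slc2a3* exceeded *Slc2a1* per kilobase of exon 3.32- and 3.12-fold in nt-shRNA, 4.07-, 3.79- and 3.48-fold in shRNA1 and 4.90-, 5.34- and 4.87-fold in shRNA2 cells. The glucose carrier transcripts thus held relatively more *Slc2a3* in every KD library than in either control.

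*Ldha* and *Ldhb* were both downregulated in a graded way. *Ldha* (ENSMUSG00000063229.15, chr7:46841475-46855627, plus strand) encodes the M subunit of lactate dehydrogenase, known for the tetramer that favors lactate production. Its values were 1027 and 1152 CPM in nt-shRNA, 665, 600 and 739 CPM in shRNA1 and 436, 431 and 490 CPM in shRNA2 cells. No library of one group reached the range of another. *Ldha* fell to 61.3% of nt-shRNA with shRNA1 (log2 fold change −0.71, SE 0.08, adjusted p = 3.16e-06), to 41.5% with shRNA2 (−1.27, SE 0.08, adjusted p = 3.81e-10), and by a further 0.56 (SE 0.07, adjusted p = 1.66e-05) on the log2 scale from shRNA1 to shRNA2. Processed copies of *Ldha* held few fragments, with at most 6 counts in *Ldha-ps2* and none in *Ldha-ps*.

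*Ldhb* (ENSMUSG00000030246.11, chr6:142490249-142507957, minus strand) encodes the H subunit, known for the tetramer that favors lactate oxidation. It was measured at 923 and 846 CPM in nt-shRNA, at 519, 474 and 558 CPM in shRNA1 and at 254, 226 and 319 CPM in shRNA2 cells. The groups were again separate, and the shRNA2 libraries lay furthest down. It fell to 58.5% of nt-shRNA with shRNA1 (log2 fold change −0.77, SE 0.10, adjusted p = 1.16e-05) and to 30.1% with shRNA2 (−1.73, SE 0.10, adjusted p = 1.30e-10). The difference between the hairpins was −0.96 (SE 0.09, adjusted p = 1.03e-06), and only 3.17% of tested genes had a lower value in that comparison.

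Because the 2 subunits fell by different amounts, their ratio per kilobase was compared within libraries. *Ldha* to *Ldhb* was 0.528 and 0.646 in nt-shRNA, 0.608, 0.599 and 0.628 in shRNA1 and 0.813, 0.903 and 0.728 in shRNA2 cells. The shRNA1 ratios lay inside the control range, and all 3 shRNA2 ratios lay above both other groups. The mean log2 difference was 0.47 for shRNA2 against nt-shRNA (exact permutation test, 2-sided p = 0.2) and 0.41 for shRNA2 against shRNA1 (exact p = 0.1), each the smallest p that this exact test allows at these group sizes, so the test cannot pass 0.05 for any ratio.

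The lactate carriers differed most. *Slc16a3* (ENSMUSG00000025161.16, chr11:120948480-120960868, plus strand) encodes MCT4, the carrier typical of lactate-exporting cells. It was measured at 130 and 169 CPM in nt-shRNA, at 58.6, 54.3 and 83.1 CPM in shRNA1 and at 26.3, 21.6 and 33.0 CPM in shRNA2 cells. All 3 groups were separate although the libraries within each spread more than for the other 9 genes (pooled SD 0.31 on the log2 scale). It fell to 44.0% of nt-shRNA with shRNA1 (log2 fold change −1.18, SE 0.15, adjusted p = 7.37e-06), to 18.1% with shRNA2 (−2.47, SE 0.15, adjusted p = 3.48e-10), and by 1.28 (SE 0.15, adjusted p = 4.50e-06) from shRNA1 to shRNA2. Only 0.416% of tested genes had a lower log2 fold change with shRNA2. *Csnk1d*, on the opposite strand and with up to 4606 counts, overlaps 5.75% of its exon length, and the counting used no strand.

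*Slc16a1* (ENSMUSG00000032902.1, chr3:104638668-104658462, plus strand) encodes MCT1, which carries lactate and pyruvate in either direction. Its values were 172 and 177 CPM in nt-shRNA, 164, 163 and 158 CPM in shRNA1 and 163, 156 and 169 CPM in shRNA2 cells. Every KD library lay below both controls, but by little. The log2 fold change was −0.11 (95% interval −0.24 to 0.01, adjusted p = 0.160) with shRNA1 and −0.10 (−0.22 to 0.03, adjusted p = 0.169) with shRNA2. These intervals exclude a fall of the size seen for *Slc16a3*. With GC content offsets, tried after the data were seen, both passed the test (−0.20, adjusted p = 0.00532, and −0.21, adjusted p = 0.00173), whereas scaling by library size alone put the shRNA1 value at 0.00. Per kilobase, *Slc16a1* exceeded *Slc16a3* 1.59- and 1.26-fold in nt-shRNA, 3.35-, 3.60- and 2.28-fold in shRNA1 and 7.44-, 8.70- and 6.18-fold in shRNA2 cells. This was the ratio of the 5 that moved most, by 1.09 with shRNA1 and 2.38 with shRNA2 on the log2 scale (exact permutation p = 0.2 for each, the smallest that test allows).

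**Figure D2:**
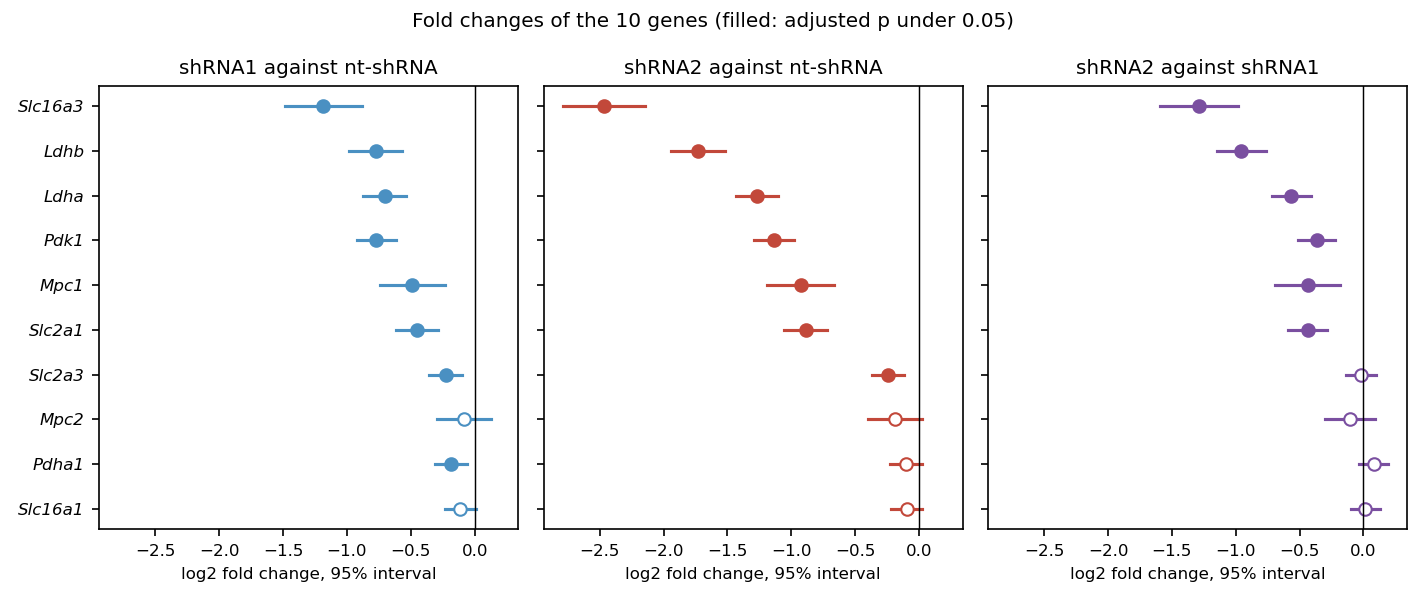
Log2 fold change (horizontal axis) with its 95% interval for the 10 genes in shRNA1 against nt-shRNA, shRNA2 against nt-shRNA and shRNA2 against shRNA1 from the edgeR fit on 8 libraries, where filled points passed an adjusted p of 0.05. *Slc16a3* lies furthest left in each panel, and *Slc16a1*, *Mpc2* and *Pdha1* lie within 0.19 of 0 in all 3.

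The mitochondrial carrier subunits were low in counts and differed in response. *Mpc1* (ENSMUSG00000023861.17, chr17:8282904-8297661, plus strand) and *Mpc2* encode the obligate partners of the mitochondrial pyruvate carrier. *Mpc1* was measured at 11.3 and 11.3 CPM in nt-shRNA, at 8.16, 8.09 and 7.91 CPM in shRNA1 and at 6.46, 5.23 and 6.15 CPM in shRNA2 cells, from 116 to 325 counts in a library. The 3 groups did not overlap. It fell to 71.3% of nt-shRNA with shRNA1 (log2 fold change −0.49, SE 0.12, adjusted p = 0.00497), to 52.6% with shRNA2 (−0.93, SE 0.13, adjusted p = 4.85e-06), and by 0.44 (SE 0.12, adjusted p = 0.00829) between the hairpins. An antisense gene with at most 27 counts covers 23.1% of its exon length, and the pseudogene *Mpc1-ps* had 24 to 60 counts, so some fragments of *Mpc1* may be uncertain.

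*Mpc2* (ENSMUSG00000026568.6, chr1:165460637-165481214, plus strand) was measured at 18.8 and 19.4 CPM in nt-shRNA, at 17.9, 18.7 and 17.6 CPM in shRNA1 and at 17.4, 14.7 and 18.2 CPM in shRNA2 cells. All KD libraries lay below the controls, with shRNA2 replicate 2 the lowest. The log2 fold change was −0.08 (95% interval −0.29 to 0.13, adjusted p = 0.570) with shRNA1 and −0.19 (−0.40 to 0.03, adjusted p = 0.126) with shRNA2. With GC content offsets the shRNA2 value passed the test (−0.29, adjusted p = 0.0116), and without shRNA2 replicate 2 it was −0.10. The *Mpc1* to *Mpc2* ratio per kilobase was 2.12 and 2.06 in nt-shRNA, 1.61, 1.53 and 1.59 in shRNA1 and 1.31, 1.25 and 1.19 in shRNA2 cells. These ratios did not overlap between groups and had small spreads (SD 0.03, 0.04 and 0.07 on the log2 scale for nt-shRNA, shRNA1 and shRNA2).

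At the PDH step, the kinase fell and the enzyme subunit nearly held its level. *Pdk1* (ENSMUSG00000006494.11, chr2:71873224-71903858, plus strand) encodes PDH kinase 1, which inhibits the complex. It was measured at 165 and 200 CPM in nt-shRNA, at 112, 103 and 106 CPM in shRNA1 and at 80.7, 80.4 and 88.5 CPM in shRNA2 cells. The controls differed from each other more than the KD libraries did within their groups, yet no groups overlapped. *Pdk1* fell to 58.7% of nt-shRNA with shRNA1 (log2 fold change −0.77, SE 0.07, adjusted p = 5.21e-07), to 45.5% with shRNA2 (−1.14, SE 0.08, adjusted p = 6.74e-10), and by 0.37 (SE 0.07, adjusted p = 0.000500) between the hairpins.

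*Pdha1* (ENSMUSG00000031299.10, chrX:160122209-160138413, minus strand) encodes the E1α subunit, which PDH kinases phosphorylate. It stood at 347 and 319 CPM in nt-shRNA, at 294, 299 and 287 CPM in shRNA1 and at 321, 303 and 306 CPM in shRNA2 cells. The shRNA1 libraries were lowest, and shRNA2 overlapped the controls. With shRNA1 it fell to 88.1% of nt-shRNA (log2 fold change −0.18, SE 0.06, adjusted p = 0.0257), a call that was lost without nt-shRNA replicate 1 (−0.12, adjusted p = 0.315), without shRNA1 replicate 1 (adjusted p = 0.0576) and without shRNA1 replicate 2 (adjusted p = 0.0514). With shRNA2 the value was −0.10 (95% interval −0.23 to 0.02, adjusted p = 0.151), which passed the test in 1 of 17 alternative settings, GC content offsets (−0.18, adjusted p = 0.00585). It was −0.0447 without nt-shRNA replicate 1, −0.17 without nt-shRNA replicate 2 and −0.0128 with library size alone. *Map3k15*, on the opposite strand with up to 449 counts, covers 16.1% of its exon length. The *Pdk1* to *Pdha1* ratio per kilobase was 0.229 and 0.302 in nt-shRNA, 0.184, 0.166 and 0.178 in shRNA1 and 0.121, 0.127 and 0.139 in shRNA2 cells. Its mean log2 difference from nt-shRNA was −0.58 with shRNA1 and −1.03 with shRNA2, without overlap, and the shRNA1 value ranged from −0.78 to −0.38 when nt-shRNA replicate 1 or 2 was left out.

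**Figure D3:**
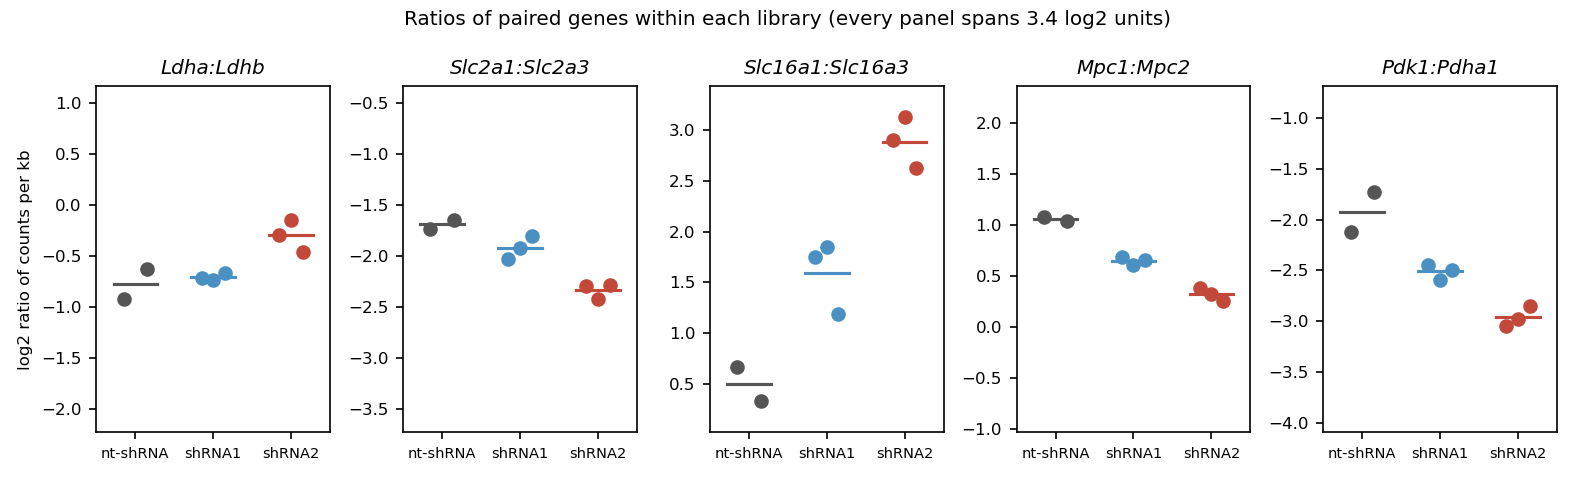
Log2 ratio per kilobase of exon (vertical axis, each panel spanning 3.4 log2 units) of 5 gene pairs in each library, with points for libraries and bars for group means. *Slc16a1* to *Slc16a3* climbs furthest, *Slc2a1* to *Slc2a3*, *Mpc1* to *Mpc2* and *Pdk1* to *Pdha1* step down with each hairpin, and *Ldha* to *Ldhb* rises with shRNA2 alone.

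The hairpins were also compared directly, since the labels give 2 of them for *Eftud2*. *Eftud2* itself was not called in this comparison (shRNA2 against shRNA1 −0.11, adjusted p = 0.164), and it passed in 1 of 17 alternative settings. With shRNA2 against shRNA1, 6 of the 10 genes were lower and none higher (18.7% of all tested genes lower, 16.9% higher and 35.6% in either direction). These were *Slc2a1*, *Slc16a3*, *Ldha*, *Ldhb*, *Mpc1* and *Pdk1*, which were thus lower in all 3 comparisons, as were 7.5% of tested genes. The ranges of the groups were separate and lower for all 10 genes with shRNA1 against nt-shRNA (30.2% of tested genes, 56.8% in either direction), for 9 with shRNA2 against nt-shRNA (36% of tested genes, 71.4% in either direction) and for 6 with shRNA2 against shRNA1 (24.1% of tested genes, 47.8% in either direction). *Pdha1* was separate and higher in the last, as were 23.6% of tested genes. Its difference there was 0.08 (95% interval −0.03 to 0.19, adjusted p = 0.263). For *Slc16a1* the hairpins differed by 0.01 (−0.10 to 0.13, adjusted p = 0.856) and for *Mpc2* by −0.10 (−0.30 to 0.09, adjusted p = 0.406), which was −0.0175 without shRNA2 replicate 2 and −0.17 without shRNA2 replicate 3. Libraries of one group did not scatter evenly. All 10 genes in shRNA2 replicate 2 lay below their group means, and 9 of 10 in shRNA2 replicate 3 lay above. Between the controls, replicate 2 was higher for 8 of 10.

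In levels per kilobase of exon, *Ldhb* and *Slc2a3* led in nt-shRNA cells at 563 ± 34.8 and 539 ± 6.34 CPM per kb (SD, n = 2), and their libraries overlapped. *Ldha* (329 ± 26.5), *Slc2a1* (168 ± 9.41), *Pdha1* (89.1 ± 5.25) and *Slc16a1* (39.4 ± 0.89) followed, each apart from its neighbors. *Slc16a3* (24.4 and 31.7 in its 2 libraries) and *Pdk1* (23.5 ± 3.18) overlapped, and *Mpc1* (5.43 ± 0.01) and *Mpc2* (2.60 ± 0.05) were lowest. The length used merges all exons of a gene, and for *Mpc2* it is 7344 bases against 1025 for its longest principal transcript. With that shorter length, tried after the data were seen, *Mpc2* was at 18.6 and *Mpc1* at 11.8 CPM per kb, and *Slc2a3* (986) came ahead of *Ldhb* (678). The order of several genes therefore rests on the length chosen, and so does each ratio's level, whereas the change of a ratio between groups does not. In shRNA2 cells *Slc2a3* led at 455 ± 17.9 CPM per kb, with *Ldhb* at 170 ± 30.4 and *Ldha* at 137 ± 9.86, whose libraries overlapped in range with each other. With the principal transcript lengths this pair turned, to 256 for *Ldha* and 204 for *Ldhb*.

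Across the 8 libraries, the gene outside the set whose log2 CPM tracked each member most closely was *Pgk1* for *Ldha* (Pearson's r = 0.9986), *Hk1* for *Ldhb* (0.9977), *Krt18* for *Slc2a1* (0.9978), *Stk25* for *Slc16a3* (0.9989), *Vps35l* for *Mpc1* (0.9979), *Camk1d* for *Pdk1* (0.9952), *Med12* for *Slc2a3* (0.9883), *Gm7762* for *Mpc2* (0.9685), *G2e3* for *Slc16a1* (0.9651) and *Gm24727* for *Pdha1* (0.9595). The points share their groups, so any genes that step down with the hairpins score high, and the values are descriptions. *Ldha* and *Ldhb* were each nearest to a glycolytic gene, phosphoglycerate kinase 1 and hexokinase 1. The next genes were *Aldoa* (0.9982) and *Eno1b* (0.9978) for *Ldha*. For *Ldhb* they were *Bst2* and *Exoc4* (0.9975 each), hardly below *Hk1*.

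The other genes of the pathway give the surroundings of the 10. Of 48 on the list, 46 were in the table and 35 were tested. With shRNA1, 12 of the 35 were lower and 4 higher (17.1% and 13.8% of all tested genes), and with shRNA2, 20 were lower and 6 higher (28.7% and 27.2% of all tested genes). The counts of higher genes with both hairpins include *Slc5a1*, whose call is not read as a result, as given below. The shorter lists that follow are read against the same shares. Without nt-shRNA replicate 1, none was called higher with shRNA1. Their median log2 fold change was −0.08 and −0.32, smaller in size than that of the 10 genes. The list was drawn up with earlier results of these data known. Among other glucose carriers, 2 of 6 tested were lower with each hairpin. The 1 called higher with each, *Slc5a1*, passed the filter through its shRNA2 libraries, and only its levels are given. *Slc2a4*, the insulin-responsive GLUT4, was at 6.73 ± 0.29 CPM (SD, n = 2) in nt-shRNA, 3.69 ± 0.64 CPM (n = 3) in shRNA1 and 2.03 ± 0.78 CPM (n = 3) in shRNA2 cells and had log2 fold changes of −0.88 (adjusted p = 0.00253) with shRNA1 and −1.72 (adjusted p = 1.95e-06) with shRNA2. *Slc2a8*, GLUT8, had log2 fold changes of −0.37 (adjusted p = 0.00495, lost without nt-shRNA replicate 1 at 0.0756) with shRNA1 and −0.63 (adjusted p = 1.20e-05) with shRNA2. *Slc5a1*, a sodium-coupled glucose carrier, was under 3 counts in both nt-shRNA libraries, at 0.36 to 0.44 CPM in shRNA1 and at 1.29 to 2.33 CPM in shRNA2 cells. All its levels were low, and it passed the filter on low counts through its shRNA2 libraries, so its fitted differences are not read as results.

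Of 5 regulators of glucose uptake, 1 was lower and 1 higher with shRNA1, and 3 were lower with shRNA2. The higher one, *Mlxip* (0.20, adjusted p = 0.0389), was lost in 8 of 17 alternative settings, namely under DESeq2 (0.0626), with gene length offsets (0.126), with no filter, without either nt-shRNA library (0.102 and 0.245) and without shRNA1 replicate 1 (0.0719), 2 (0.0603) or 3 (0.0765). *Txnip*, an arrestin-like protein that restrains glucose uptake, was at 1430 ± 35.1 CPM (SD, n = 2) in nt-shRNA, 1506 ± 93.2 CPM (n = 3) in shRNA1 and 882 ± 113 CPM (n = 3) in shRNA2 cells. Its log2 fold change was 0.08 (adjusted p = 0.526) with shRNA1 and −0.70 (adjusted p = 8.49e-07) with shRNA2, and the direct difference between the hairpins was called (−0.77). Its relative *Arrdc4* followed the same course, with −0.08 (adjusted p = 0.343) and −0.54 (adjusted p = 7.81e-07). *Mlxipl*, the glucose-sensing factor ChREBP, had log2 fold changes of −0.32 (adjusted p = 0.0276) with shRNA1 and −0.69 (adjusted p = 2.85e-05) with shRNA2. The shRNA1 call was lost in 6 of 17 alternative settings, without either nt-shRNA library (0.174 and 0.0766) or shRNA1 replicate 1 (0.0754) or 2 (0.112) among them.

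Of the chaperones that bring lactate carriers to the membrane, basigin and embigin fell with both hairpins. *Bsg* (basigin) was at 777 ± 8.30 CPM (SD, n = 2) in nt-shRNA, 485 ± 41.0 CPM (n = 3) in shRNA1 and 385 ± 4.71 CPM (n = 3) in shRNA2 cells, and had log2 fold changes of −0.68 (adjusted p = 4.91e-07) with shRNA1 and −1.01 (adjusted p = 5.09e-10) with shRNA2. *Emb* (embigin) had log2 fold changes of −0.30 (adjusted p = 0.00599) with shRNA1 and −0.72 (adjusted p = 2.91e-07) with shRNA2. Its shRNA1 call was lost without nt-shRNA replicate 1 (adjusted p = 0.0625) and with library size alone (−0.19, adjusted p = 0.0768). *Nptn* (neuroplastin), a basigin relative, was at 0.33 with shRNA2 (adjusted p = 0.000767), a call that was lost with GC content offsets (0.14, adjusted p = 0.0518), and at 0.17 with shRNA1 (adjusted p = 0.0832). Of the 4 tested genes of this list, 2 were lower with each hairpin and 1 was higher with shRNA2.

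All 3 other lactate dehydrogenase genes tested were lower with shRNA2, and 1 was with shRNA1. *Ldhd*, the D-lactate dehydrogenase, went from 11.8 ± 1.15 CPM (SD, n = 2) in nt-shRNA to 6.48 ± 1.15 CPM (n = 3) in shRNA1 and 2.90 ± 0.40 CPM (n = 3) in shRNA2 cells, with log2 fold changes of −0.85 (adjusted p = 0.000266) and −2.02 (adjusted p = 7.66e-09). *Ldhc*, the germ-cell subunit, was at −0.30 (adjusted p = 0.188) with shRNA1 and −1.004 (adjusted p = 9.24e-05) with shRNA2. *Uevld*, which holds a lactate dehydrogenase-like domain, was at −0.10 (adjusted p = 0.414) and −0.32 (adjusted p = 0.00359).

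The PDH complex and its regulators moved in a mixed way. Of 5 other subunits tested, 1 was lower and 1 higher with shRNA1, and 2 were lower and 2 higher with shRNA2. Of the lower ones, *Dlat*, the E2 component (−0.17, adjusted p = 0.0300), was lost in 6 of 17 alternative settings, without either nt-shRNA library (0.122 and 0.106) or shRNA2 replicate 1 (0.115) or 2 (0.0875) among them, which left 1 lower. *Pdhb*, the partner of *Pdha1* in E1, was at 144 ± 2.84 CPM (SD, n = 2), 120 ± 1.64 CPM (n = 3) and 123 ± 5.67 CPM (n = 3) in nt-shRNA, shRNA1 and shRNA2 cells and had log2 fold changes of −0.26 (adjusted p = 0.00253) with shRNA1 and −0.23 (adjusted p = 0.00262) with shRNA2. Its shRNA1 call was lost with library size alone (−0.15, adjusted p = 0.0584). *Pdhx*, the E3-binding component, was at 0.19 (adjusted p = 0.0637) with shRNA1 and rose by 0.47 (adjusted p = 3.45e-05) with shRNA2. *Pdha2*, the testis E1α gene, at a low 1.72 CPM in nt-shRNA, had log2 fold changes of 0.63 (adjusted p = 0.0276) with shRNA1 and 0.87 (adjusted p = 0.00146) with shRNA2. The shRNA1 call was lost in 5 of 17 alternative settings, namely under DESeq2 (adjusted p = 0.0883) and without nt-shRNA replicate 1 (0.0756) or 2 (0.180) or shRNA1 replicate 1 (0.0805) or 2 (0.0784).

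The other 3 PDH kinases were all lower with shRNA2, as *Pdk1* was. *Pdk4* was at 47.8 ± 3.32 CPM (SD, n = 2) in nt-shRNA, 34.2 ± 2.27 CPM (n = 3) in shRNA1 and 22.9 ± 1.75 CPM (n = 3) in shRNA2 cells and had log2 fold changes of −0.48 (adjusted p = 0.000266) with shRNA1 and −1.06 (adjusted p = 7.47e-09) with shRNA2. *Pdk2* was at −0.36 (adjusted p = 0.0708) with shRNA1 and −0.66 (adjusted p = 0.00123) with shRNA2, and *Pdk3* at −0.07 (adjusted p = 0.490) and −0.20 (adjusted p = 0.0275), a call that was lost in 6 of 17 alternative settings, without either nt-shRNA library (0.0957 and 0.119) or shRNA2 replicate 1 (0.0757) or 2 (0.0608) among them. The phosphatases that reverse the kinases did not follow. *Pdpr*, the regulatory subunit, had log2 fold changes of 0.20 (adjusted p = 0.0489) with shRNA1 and 0.22 (adjusted p = 0.0172) with shRNA2. The shRNA1 call was lost in 9 of 17 alternative settings, DESeq2 (adjusted p = 0.0802) and each shRNA1 library left out among them. Without nt-shRNA replicate 1 both calls were lost (0.12, adjusted p = 0.438, and 0.13, adjusted p = 0.263). The catalytic *Pdp2* was at 0.03 (adjusted p = 0.740) and −0.03 (adjusted p = 0.711), and *Pdp1* at 0.23 (adjusted p = 0.161) and −0.02 (adjusted p = 0.891).

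Among genes of other reactions that make or use pyruvate or lie next to it, 4 of 6 tested were lower with shRNA1 and 5 of 6 with shRNA2, where 1 was higher. The higher one, *Me2* (0.18, adjusted p = 0.0207), was lost in 5 of 17 alternative settings, among them GC content offsets (0.0910, adjusted p = 0.140) and either nt-shRNA library left out (adjusted p = 0.170 and 0.0648). *Pcx*, pyruvate carboxylase, was among the lower (−0.30, adjusted p = 0.0258, and −0.32, adjusted p = 0.0105), and its call was lost in 6 of 17 settings with shRNA1 and in 3 of 17 with shRNA2, without nt-shRNA replicate 1 in both (adjusted p = 0.188 and 0.0894). The shRNA2 call of *Gpt* (−0.54, adjusted p = 0.0103) was lost without nt-shRNA replicate 2 (0.0717) and without shRNA2 replicate 1 (0.0614). *Me1*, the cytosolic malic enzyme that makes pyruvate from malate, was at 117 ± 2.15 CPM (SD, n = 2) in nt-shRNA, 77.3 ± 3.44 CPM (n = 3) in shRNA1 and 57.2 ± 4.02 CPM (n = 3) in shRNA2 cells and had log2 fold changes of −0.60 (adjusted p = 3.16e-06) with shRNA1 and −1.03 (adjusted p = 6.93e-10) with shRNA2. *Gpt2*, the mitochondrial alanine aminotransferase, had log2 fold changes of −0.57 (adjusted p = 7.16e-05) with shRNA1 and −1.13 (adjusted p = 4.62e-09) with shRNA2. *Pck2*, the mitochondrial PEP carboxykinase that acts on oxaloacetate, had log2 fold changes of −0.84 (adjusted p = 1.98e-05) with shRNA1 and −1.45 (adjusted p = 6.21e-09) with shRNA2.

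**Figure D4:**
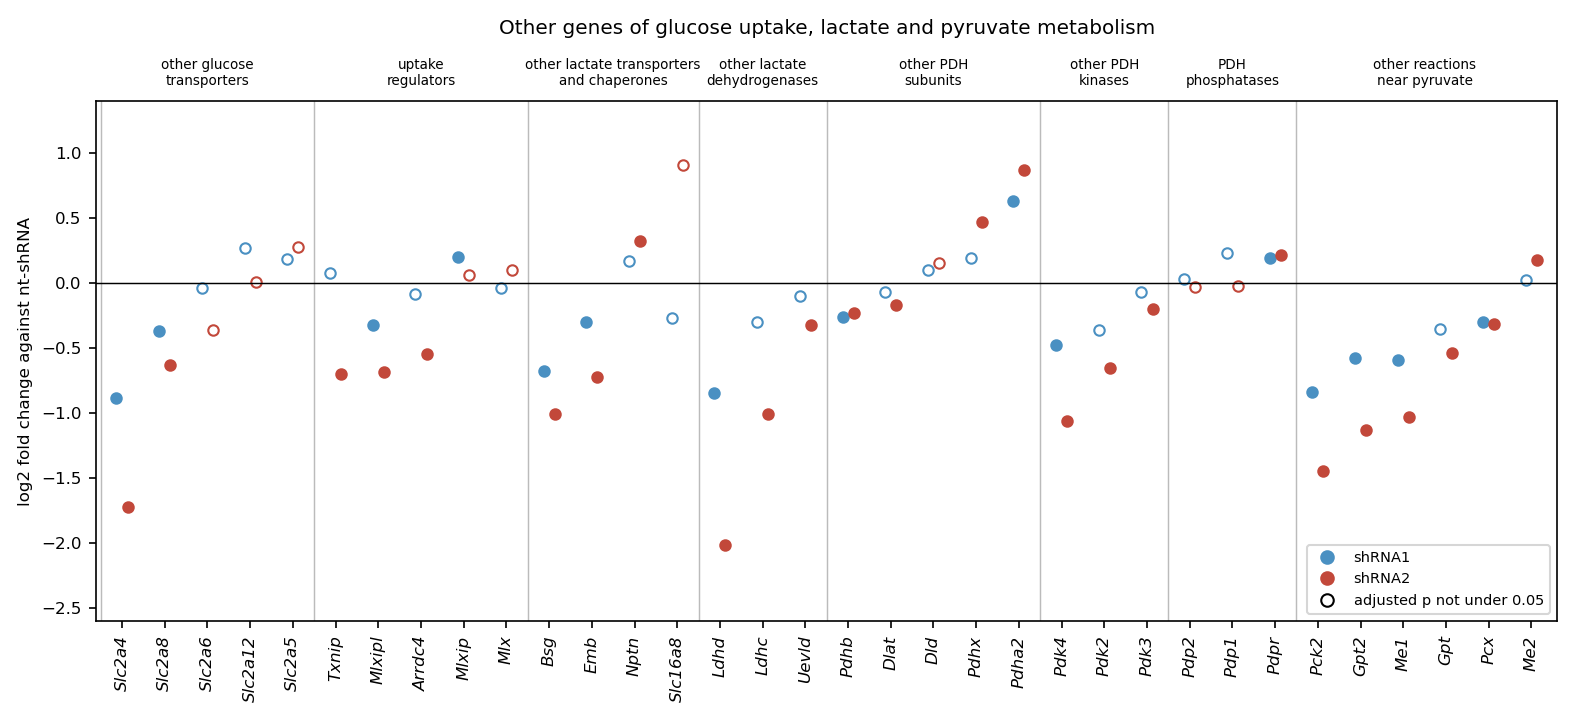
Log2 fold change against nt-shRNA (vertical axis) of 34 other genes of glucose uptake, lactate and pyruvate metabolism with shRNA1 (blue) and shRNA2 (red), in groups by role, where open points did not pass an adjusted p of 0.05 (*Slc5a1* is left out because its controls were under 3 counts). PDH kinases and most genes of other reactions near pyruvate lie below 0, whereas PDH subunits and phosphatases lie on both sides.

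Most genes of the glycolytic steps between uptake and pyruvate were lower as well. Of 11 tested genes of upper glycolysis, 9 were lower with shRNA1 (17.1% of all tested genes), and 10 were lower and 1 higher (*Pfkfb4*) with shRNA2 (28.7% and 27.2% of all tested genes). The *Pfkfb4* call (log2 fold change 0.32, adjusted p = 0.0445) was lost in 8 of 17 alternative settings, DESeq2 (0.114), either nt-shRNA library left out (0.0832 and 0.222), shRNA1 replicate 1 left out (0.0535) and shRNA2 replicate 1 (0.123) or 2 (0.0760) left out among them. Of 12 tested genes of lower glycolysis, 9 were lower with shRNA1 and all 12 with shRNA2. Of these shRNA2 calls, that of *Pklr* (−0.88, adjusted p = 0.0199) was lost under DESeq2 (0.0682), without nt-shRNA replicate 2 (0.208) and without shRNA2 replicate 1 (0.0696) or 2 (0.0508). That of *Pgam2* (−0.64, adjusted p = 0.00349) was lost without nt-shRNA replicate 1 (0.0713). With a library left out, 17 to 18 genes of both lists were lower with shRNA1 and 20 to 22 with shRNA2. The medians were −0.54 and −1.24 for the upper list and −0.56 and −0.90 for the lower list with shRNA1 and shRNA2. *Pfkp*, a subunit of phosphofructokinase, had log2 fold changes of −0.93 (adjusted p = 6.57e-07) with shRNA1 and −1.85 (adjusted p = 3.60e-11) with shRNA2, *Pfkl* −0.99 and −1.55, and *Gpi1*, glucose-6-phosphate isomerase, −0.77 and −1.24. *Pgk1* had log2 fold changes of −0.96 (adjusted p = 1.95e-07) with shRNA1 and −1.78 (adjusted p = 3.60e-11) with shRNA2, and the aldolases *Aldoc* and *Aldoa* had −1.30 and −0.94 with shRNA1 and −3.12 and −1.67 with shRNA2.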

How the data were processed

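RNA-seq was analysed from R1 mESCs with shRNA1 (3 libraries), shRNA2 (3) and nt-shRNA (2). The authors deposited raw counts per gene for 55385 genes, made from paired reads with featureCounts 1.6.2 on GENCODE M24 exons (GRCm38). Fragments were counted without strand, and those with several alignments or shared between genes were left out. The submitters' processing notes also name STAR and FastQC. Places and merged exon lengths are those of the deposited table. Gene names (55144 matched) and transcript lengths came from GENCODE M21 and promoters from RefSeq (GRCm38.p6).

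Counts of all 8 libraries were tested in R 4.3.3 with edgeR 4.0.16 (filterByExpr with a minimum count of 10, TMM, glmQLFit, glmQLFTest, 1 coefficient per group, Benjamini-Hochberg over 17445 genes). The study's methods name DESeq2, which was run here as an alternative (1.42.0). Standard errors came from the F statistic, and intervals are 95%. A log2 CPM used a prior count of 2. Ratios were compared by exact permutation over libraries, 15 tests in all (smallest adjusted p 0.214). On simulated data for shRNA2 against nt-shRNA (16730 genes), 96 of 100 genes changed by a log2 of 1 and 65 of 100 changed by 0.5 were called. Of the simulated calls, 5.29% were false. Only these genes were changed there, and all genes had the same fixed spread. Far more genes were called in the real data, so these shares do not give the power of the real comparison. The 10 genes and the lists were chosen with earlier results of these data known. Named were all 10, the 3 genes with the smallest adjusted p with shRNA2 in each other list, and the nearest gene to each member. *Pfkfb4*, *Pklr*, *Pgam2*, *Mlxip*, *Dlat*, *Me2*, *Pcx*, *Gpt* and the single markers were named after their values were seen. *p*-values measure the spread between cultures of 1 line. Alternatives were other scalings, filters, tools and left-out libraries, and, chosen after seeing the data, GC content and gene length offsets and transcript lengths.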

Additional observations from a re-analysis of the deposited data

How the results depend on the processing

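*Slc2a1*, *Slc16a3*, *Ldha*, *Ldhb*, *Mpc1* and *Pdk1* kept their direction and stayed past the threshold in all 3 comparisons under each of 17 settings per comparison. When library size alone set the scale, the median over all genes was 0.11 (shRNA1) and 0.09 (shRNA2) on the log2 scale, *Mpc2* turned to 0.0316 and *Slc16a1* to 0.00176 with shRNA1, the *Pdha1* (adjusted p = 0.392) and *Slc2a3* calls there ended, and there were 4101 genes higher and 1713 lower with shRNA1 (70.5% of calls higher, against 44.7% with TMM, and 58.9% against 48.7% with shRNA2). The *Pdha1* call with shRNA1 was also lost with at least 10 counts in every library (adjusted p = 0.0593) and with only the groups compared (adjusted p = 0.058). *Eftud2* with shRNA1 was called in 7 of 17 settings, with the replicate block (adjusted p = 0.0206) among them. The members called lower ranged from 6 to 9 with shRNA1 and from 7 to 10 with shRNA2 and were 6 between the hairpins throughout.

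Between the hairpins, *Slc16a1* changed sign with GC content offsets (−0.00938), library size alone (−0.00983) and no filter (−0.00203), and ranged from −0.0138 to 0.0443 with a library left out, as *Slc2a3* did from −0.0408 to 0.0153. With a library left out, 1248 to 2649 genes were higher and 1700 to 3254 lower with shRNA1, with the lowest values without nt-shRNA replicate 1, and 1531 were higher without nt-shRNA replicate 2. The *Ldha* to *Ldhb* difference with shRNA1 ranged from −0.0780 to 0.213 and the *Pdk1* to *Pdha1* difference from −0.78 to −0.38 with shRNA1 and from −1.23 to −0.83 with shRNA2. The glycolytic gene called higher with shRNA2 went to 0 under DESeq2, with no filter, with the replicate block and with several libraries left out, and that between the hairpins went to 0 with some left out. Other pathway genes called higher with shRNA1 were 1 under DESeq2, 8 with library size alone, 2 with no filter and 0 to 5 with a library left out, and between the hairpins 2 with at least 10 counts in every library and 2 to 5 with a library left out. The cause was not tested.

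No pairing of same-numbered replicates was seen in these libraries (correlations of deviations from −0.0259 to 0.0742 over 7 pairs). Adding the replicate number as a block called 3324 genes lower and 2694 higher with shRNA1, 5136 and 4898 with shRNA2, and 3402 and 3116 between the hairpins. Each of these counts was larger than without the block. *Mpc1* and *Mpc2* rest on 116 to 556 counts a library, and the other 8 genes on at least 479.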
